A study of Mus musculus with 18 samples.

Results

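The genes described here carry fatty acids into muscle, free them from stored triglyceride and burn them in mitochondria. They form a list of 36 genes grouped by function. Of these, 33 had a probe set annotated to that gene alone, among 18161 genes with such a probe set on the arrays. Acsl1 and Ucp2 were not analysed here, and Cpt1b lay only on a probe set shared with other genes. Messenger RNA was measured in the gracilis, a thigh muscle of mixed fibre type, of young male C57BL/6J mice that received clenbuterol, a β2-adrenergic agonist that enlarges muscle. Group C received vehicle for 10 days, the 24 h group received 9 vehicle injections and then 1 of clenbuterol at 1 mg/kg, and the 10 D group received clenbuterol at that dose for 10 days, with muscle taken 24 hours after the last injection in all 3 groups. Each group had 3 pools of 3 mice. The study chose the 27 mice for strong responses in weight gain and blood urea nitrogen relative to C, and whole cages were assigned to treatments, so p-values measure the spread between pools of selected mice.

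Long-chain fatty acids reach the muscle fibre as products of lipoprotein triglyceride hydrolysis or from lipid droplets inside the fibre. They are joined to coenzyme A, passed across the inner mitochondrial membrane as carnitine esters, and shortened by repeated cycles of dehydrogenation, hydration, a further oxidation and thiolytic cleavage. β-Adrenergic signalling through cyclic AMP and protein kinase A is best known in this pathway for activating the lipases of the lipid droplet. Many of these genes are also targets of peroxisome proliferator-activated receptors, which bind DNA with retinoid X receptors at repeats of AGGTCA.

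A promoter sequence is shown for Acot2, the member that passed the test, and for Hadhb, which together with Hadha makes the mitochondrial trifunctional protein and which was low in the same pools as Hadha. Both are the 250 bases before the RefSeq start site on GRCm38.p6, written 5′ to 3′ on the plus strand. Capitals mark the only match to TGACG, the first bases of the cyclic AMP response element, in either sequence on either strand, here on the minus strand of the Acot2 sequence at 117 bases before the start. The Acot2 sequence lies at chr12:83987611-83987860 and the Hadhb sequence at chr5:30155003-30155252.
Acot2: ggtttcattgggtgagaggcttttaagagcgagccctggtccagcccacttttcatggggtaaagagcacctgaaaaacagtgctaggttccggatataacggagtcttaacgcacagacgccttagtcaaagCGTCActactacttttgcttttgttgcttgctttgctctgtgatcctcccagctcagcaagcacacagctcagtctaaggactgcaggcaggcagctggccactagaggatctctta
Hadhb: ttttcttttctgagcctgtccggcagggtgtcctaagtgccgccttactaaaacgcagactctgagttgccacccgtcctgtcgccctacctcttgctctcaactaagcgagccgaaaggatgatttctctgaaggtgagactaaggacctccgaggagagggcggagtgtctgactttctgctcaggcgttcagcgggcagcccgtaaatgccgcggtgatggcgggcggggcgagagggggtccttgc
Hadha is read from the opposite strand. Its start lies 273 bases from that of Hadhb, so that the windows of the genes share 228 bases. Windows of 300 bases, 250 before and 50 after a start, were listed for 30 of the 33 genes, 34 windows in all. TGACG was found in 9 of these 34 windows and in 20.8% of all 32851 windows. AGGTCA was found in 7 of the 34 and in 16.3% of all, and neither printed sequence held it. The whole cyclic AMP response element TGACGTCA, which contains TGACG, was in none of the 34 and in 1.79% of all, and a direct repeat of AGGTCA with 1 base between was in none of the 34 and in 0.0396% of all. These matches describe letters only.

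Levels are given as probe set signal over the array median, and changes are differences between group means of log2 levels from limma, with Benjamini-Hochberg adjustment over all 33752 probe sets tested and a threshold of 0.1. All 33 genes passed the filter on dim probe sets. Levels of different probe sets cannot be compared with each other. Array medians were 30.8 to 88.4 on MOE430A and 13.2 to 37.1 on MOE430B. The 10 skeletal muscle fibre markers were bright in every pool, with levels of 90.1 to 464. Their summed level was highest in C pool 1, whose MOE430A median was the lowest, and lowest in 10 D pool 1, whose median was the highest. In whole muscle, fewer cells of a type and less RNA per cell cannot be told apart.

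Acot2, which encodes the mitochondrial thioesterase that splits long-chain acyl-CoA into free fatty acid and coenzyme A, was the 1 gene of the 33 past the threshold. Its levels were 5.39, 3.59 and 4.54 in the C pools, 14.9, 24.3 and 15.7 in the 24 h pools, and 6.29, 3.77 and 7.52 in the 10 D pools. All 3 pools at 24 h lay above every pool of C and of 10 D, the lowest of them 2.77 times the highest C pool, while 10 D and C overlapped. Mean levels were 4.51 ± 0.899 for C, 18.3 ± 5.20 for 24 h and 5.86 ± 1.91 for 10 D (SD, n = 3). Acot2 rose 4.01-fold at 24 h against C, with a 95% confidence interval of 2.57 to 6.27 and an adjusted p of 0.0240 by limma. In the F test over the 3 groups its adjusted p was 0.0504 by limma. At 10 D the log2 change was 0.34 ± 0.29 (SE), with an adjusted p of 1. Over both chips, 0.456% of probe sets passed the threshold at 24 h against C and 0.216% in the F test. The call rested on few pools: at 24 h the adjusted p was 0.156 without C pool 2, 0.112 without C pool 3 and 0.106 without 24 h pool 3, within a range of 0.00492 to 0.162 over 19 refits of this probe set in which the log2 change stayed between 1.78 and 2.14. In the F test no gene of the 33 passed once any 1 pool of C or of 24 h was left out.

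The other probe sets for Acot2 did not show this size of change. A dimmer one on MOE430A had levels of 1.05, 0.850 and 0.860 in the C pools, 0.900, 0.840 and 1.05 in the 24 h pools, and 0.621, 0.491 and 0.970 in the 10 D pools, with a log2 change of 0.02 ± 0.31 (SE) at 24 h. A probe set shared by Acot1 and Acot2 had levels of 0.766, 0.887 and 1.23 in the C pools, 1.78, 1.39 and 2.03 in the 24 h pools, and 1.18, 1.28 and 1.76 in the 10 D pools. Its 24 h pools all lay above C, with a log2 change of 0.86 ± 0.28 (SE) and an adjusted p of 0.370. Acot1, the cytosolic enzyme beside Acot2 on chromosome 12, had a dim probe set with a log2 change of 1.16 ± 0.66 (SE) and an adjusted p of 0.681. The rise passed the threshold in 1 of these probe sets. Averaged over both probe sets that name Acot2 alone, the log2 change at 24 h was 1.01. The probe sets were not matched to transcripts here.

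**Figure D1:**
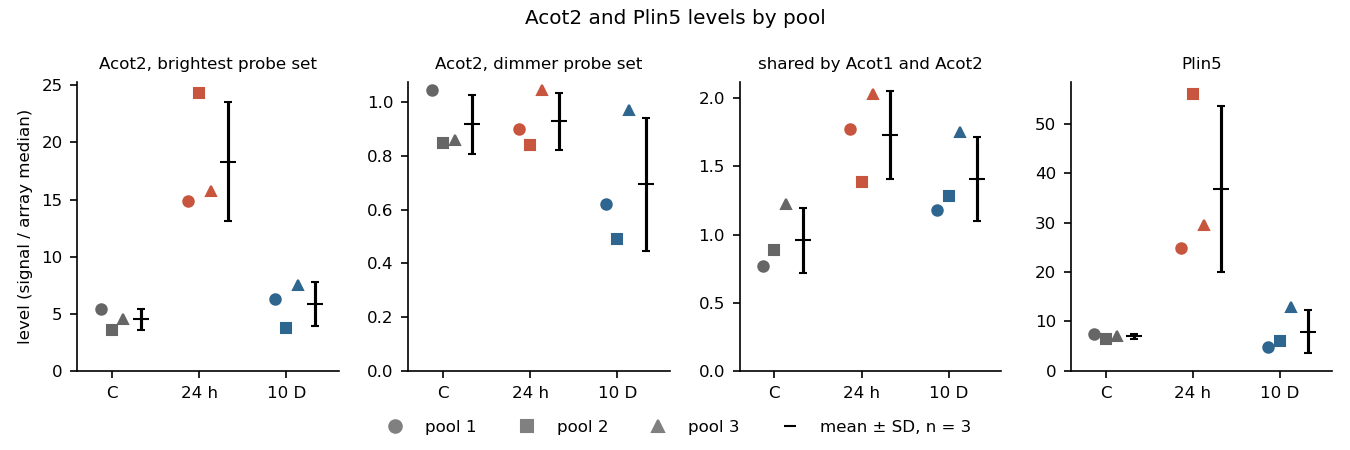
Levels (signal over array median, linear axis from 0) in the 9 pools for 2 probe sets of Acot2, the probe set shared by Acot1 and Acot2, and Plin5. Symbols mark the pool number and bars the mean ± SD of 3 pools. The brightest Acot2 probe set and Plin5 were high in all 3 pools at 24 h, and the dimmer Acot2 probe set was not.

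Across the 33 genes at 24 h, 13 log2 changes were positive and 20 negative, from -0.50 for Lipe to 2.01 for Acot2, with a median of -0.10 beside 0.02 over all probe sets tested. By an unadjusted p under 0.05, 2 genes were higher (Acot2 and Cpt2) and 1 lower (Lpl). Of all probe sets, 5% were higher and 3.55% lower by that rule. All 3 pools at 24 h lay above all C pools for 5 genes and below for 2, beside 9.6% and 7.23% of all probe sets. The sign of the median depended on 1 pool: without 24 h pool 2 it was 0.19, and 24 of the 33 changes were positive. At 10 D against C, no gene passed by limma. By an unadjusted p under 0.05, none was higher and 1 was lower (Lipe), beside 2.64% and 1.92% of all probe sets. The count of lower genes moved with the setting: it was 4 with trimmed mean scaling, 3 with quantile normalization, and 0 without C pool 1 or without C pool 3. No probe set on either chip passed the threshold in this contrast (0%). Of the 33 log2 changes 9 were positive and 24 negative, from -0.80 for Pnpla2 to 0.44 for Acsl4, and the median was -0.23 beside 0.01 over all probe sets. Without 10 D pool 2, 15 of the 33 were positive and the median was -0.07. All 3 pools at 10 D lay below all C pools for 5 genes (Lpl, Pnpla2, Lipe, Acadm and Etfb) and above for none, beside 4.52% and 5.76% of all.

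**Figure D2:**
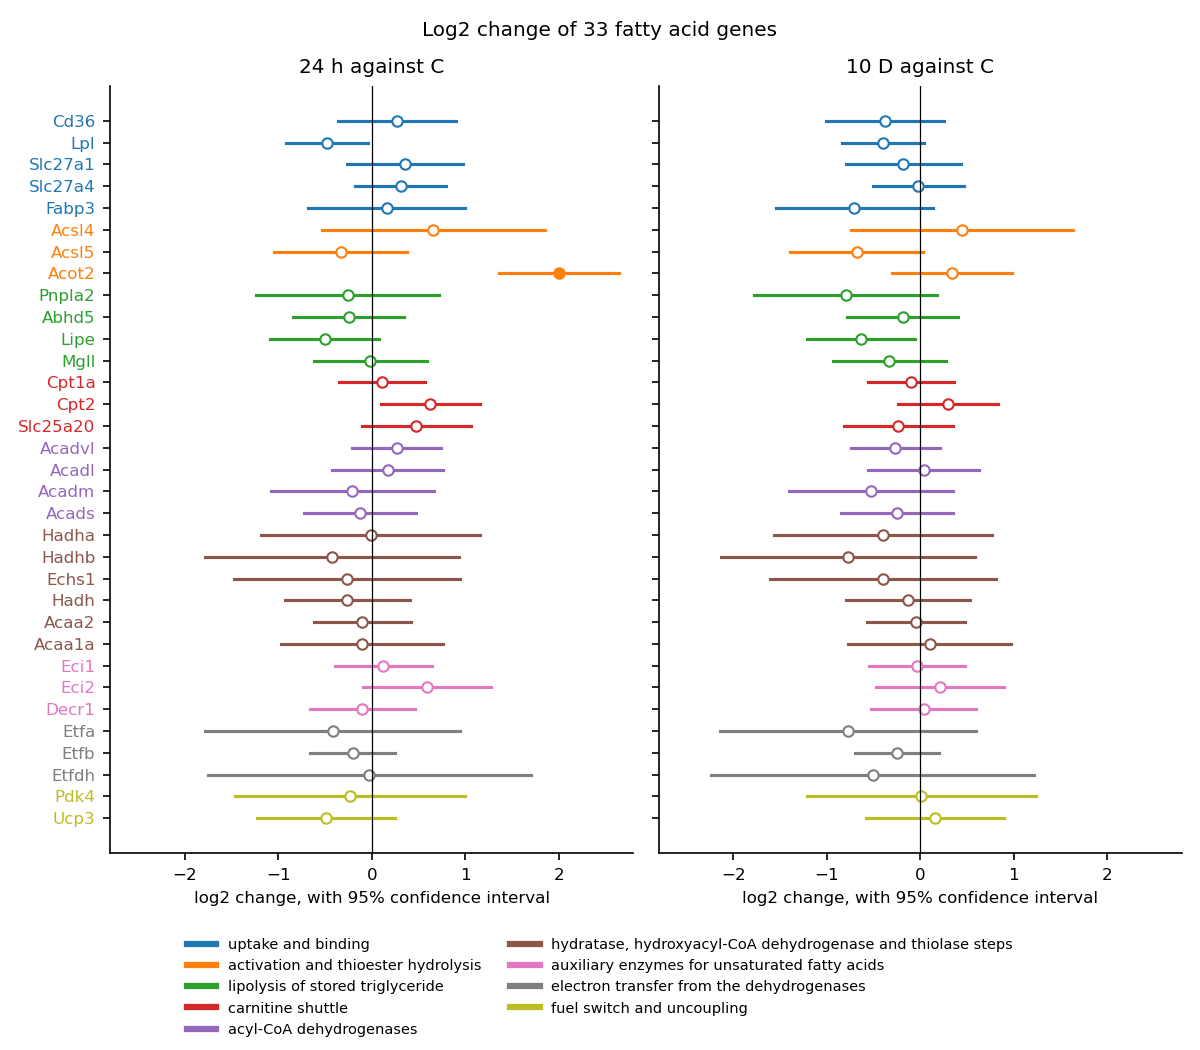
Log2 change against C at 24 h (left) and at 10 D (right) for the 33 genes, coloured by role, with 95% confidence intervals from limma. A filled point marks an adjusted p under 0.1, which only Acot2 at 24 h reached, at 2.01. The interval covered 0 for 30 genes at 24 h and for 32 at 10 D.

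Among the 5 genes for uptake and binding, none passed the threshold. Lpl encodes lipoprotein lipase, which frees fatty acids from circulating triglyceride. Its levels were 91.9, 75.0 and 92.7 in the C pools, 73.9, 56.4 and 57.2 in the 24 h pools, and 67.6, 61.2 and 67.1 in the 10 D pools. Every treated pool lay below every C pool. The log2 change was -0.47 ± 0.20 (SE) at 24 h, with an adjusted p of 0.537, and -0.40 ± 0.20 (SE) at 10 D, with an adjusted p of 1. A second Lpl probe set gave -1.0 ± 0.52 and -0.84 ± 0.52 (SE).

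Cd36, the fatty acid translocase of the cell surface, had levels of 23.8, 16.0 and 13.6 in the C pools, 25.9, 24.5 and 14.5 in the 24 h pools, and 14.9, 13.1 and 12.1 in the 10 D pools. The 3 groups overlapped. The log2 change was 0.27 ± 0.28 (SE) at 24 h and -0.38 ± 0.28 (SE) at 10 D. A dimmer Cd36 probe set had levels of 11.0, 9.18 and 7.82 in the C pools, 14.9, 9.36 and 12.0 in the 24 h pools, and 16.7, 4.89 and 10.1 in the 10 D pools. The 3 groups overlapped in it too, at a log2 change of 0.36 ± 0.39 (SE) at 24 h. The dimmest Cd36 probe set was tighter, with levels of 4.19, 4.32 and 4.55 in the C pools, 7.45, 6.75 and 7.54 in the 24 h pools, and 6.18, 4.90 and 4.41 in the 10 D pools. There all 24 h pools lay above the rest, at a log2 change of 0.73 ± 0.20 (SE) and an adjusted p of 0.255.

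Fabp3 encodes the muscle fatty acid binding protein of the cytosol. Its levels were 49.3, 42.9 and 44.8 in the C pools, 63.4, 34.7 and 60.2 in the 24 h pools, and 30.6, 15.4 and 46.1 in the 10 D pools. The treated pools spread widely on both sides of C, with a log2 change at 10 D of -0.71 ± 0.38 (SE). A dim second probe set gave -0.13 ± 0.28 (SE) at 10 D and -0.85 ± 0.28 (SE) at 24 h, where the first gave 0.16 ± 0.38 (SE). Slc27a4, a fatty acid transport protein with acyl-CoA synthetase activity, had levels of 2.07, 2.04 and 2.08 in the C pools, 2.59, 3.04 and 2.13 in the 24 h pools, and 1.89, 2.40 and 1.86 in the 10 D pools. The 24 h pools lay just above C, and the log2 change was 0.31 ± 0.22 (SE), with an adjusted p of 0.761. Slc27a1, a related transporter, had mean levels of 4.44 ± 0.895 for C, 5.68 ± 1.12 for 24 h and 4.03 ± 1.29 for 10 D (SD, n = 3).

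Of the genes for activation beside Acot2, Acsl5, a long-chain acyl-CoA synthetase, had levels of 1.87, 2.68 and 1.80 in the C pools, 2.29, 1.43 and 1.38 in the 24 h pools, and 1.87, 1.22 and 0.957 in the 10 D pools. The groups overlapped, and the log2 change at 10 D was -0.68 ± 0.32 (SE), with an adjusted p of 1. Acsl4, a synthetase that prefers arachidonate, was named after its values were seen. Its levels were 2.18, 2.34 and 1.5 in the C pools, 5.10, 1.45 and 4.08 in the 24 h pools, and 4.41, 1.28 and 3.42 in the 10 D pools. In each treated group pools 1 and 3 lay above C and pool 2 lay below it. Without both treated pools numbered 2, a choice made after these values were seen, the log2 change at 24 h was 1.21 ± 0.26 (SE), with an adjusted p of 0.0658 by limma, against 0.66 ± 0.54 (SE) and 0.803 with all pools.

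All 4 genes for the breakdown of stored triglyceride had negative log2 changes in both contrasts with C, and none passed the threshold. At 24 h this shared direction depended on single pools. Without 24 h pool 2, Pnpla2 was at 0.29 and Mgll at 0.14, with Abhd5 at -0.08 and Lipe at -0.33. Mgll was also positive without C pool 1, at 0.05, and without C pool 2, at 0.03. At 24 h the mean over all tested probe sets was 0.04 for Abhd5 and 0.02 for Mgll. Lipe encodes hormone-sensitive lipase, the diacylglycerol lipase that protein kinase A activates. Its levels were 3.86, 2.28 and 2.73 in the C pools, 2.52, 1.59 and 2.09 in the 24 h pools, and 1.90, 1.93 and 1.75 in the 10 D pools. The 10 D pools lay close together and below all C pools, while 24 h overlapped C. The log2 change was -0.63 ± 0.26 (SE) at 10 D, with an unadjusted p of 0.0354 and an adjusted p of 1 by limma, and -0.50 ± 0.26 (SE) at 24 h, with an adjusted p of 0.650. Pnpla2 encodes adipose triglyceride lipase, which removes the first fatty acid. Its levels were 17.1, 17.8 and 14.6 in the C pools, 18.8, 6.42 and 21.5 in the 24 h pools, and 12.7, 6.01 and 11.1 in the 10 D pools. The 10 D pools lay below C, at a log2 change of -0.80 ± 0.44 (SE), and pool 2 was the lowest in both treated groups. A dim second Pnpla2 probe set differed, with levels of 0.766, 0.773 and 0.519 in the C pools and 0.0249, 1.18 and 0.361 in the 10 D pools. In it 10 D pool 2 lay above every C pool, and the log2 change at 10 D was -1.62 ± 1.10 (SE). Abhd5, the protein co-activator of that lipase, had mean levels of 3.46 ± 0.730 for C, 2.92 ± 0.700 for 24 h and 3.03 ± 0.603 for 10 D (SD, n = 3). Mgll, the monoacylglycerol lipase, had mean levels of 8.31 ± 1.04, 8.30 ± 1.75 and 6.80 ± 2.21 (SD, n = 3). In a dimmer Mgll probe set all 10 D pools lay below all C and all 24 h pools. Its log2 change at 10 D was -0.55 ± 0.23 (SE) against C, with an unadjusted p of 0.0381 by limma. Against 24 h it was -0.80 ± 0.23 (SE), with an adjusted p of 0.602 by limma. A still dimmer one gave -0.28 ± 0.50 (SE) at 10 D against C.

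Lipe, Pnpla2, Abhd5 and Mgll are also expressed by fat cells. Of 10 adipocyte markers 7 were tested and none was called. Their median log2 change was -0.49 at 24 h and -0.62 at 10 D, and their summed levels over the 8 measured were 324 to 460 in C, 284 to 461 at 24 h and 254 to 428 at 10 D. Adipoq, which encodes the fat cell hormone adiponectin, had levels of 21.2, 18.8 and 25.7 in the C pools, 26.7, 7.90 and 7.64 in the 24 h pools, and 28.8, 4.13 and 11.1 in the 10 D pools. It was thus high in pool 1 of each treated group and low in pools 2 and 3. The list did not move as one in these pools: Fabp4, a fat cell fatty acid binding protein, was at 138 in 24 h pool 2 and 111 in 10 D pool 2, against 100 and 65.4 in pool 1 of those groups. Car3, a carbonic anhydrase that muscle also expresses, was at 302 and 294 in both pools 2, against 176 and 138 in pool 1. These bright probe sets make up most of each sum. Thrsp, a regulator of fat synthesis, had a log2 change of -1.26 ± 0.25 (SE) at 24 h with an adjusted p of 0.104, and Cidec, a lipid droplet protein, had -1.49 ± 0.54 (SE) at 10 D with an adjusted p of 1. Lep, the gene of leptin, was at 0.124 to 1.69 in the 9 pools. The part of fat cell RNA in the changes of the lipase genes was not tested.

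**Figure D3:**
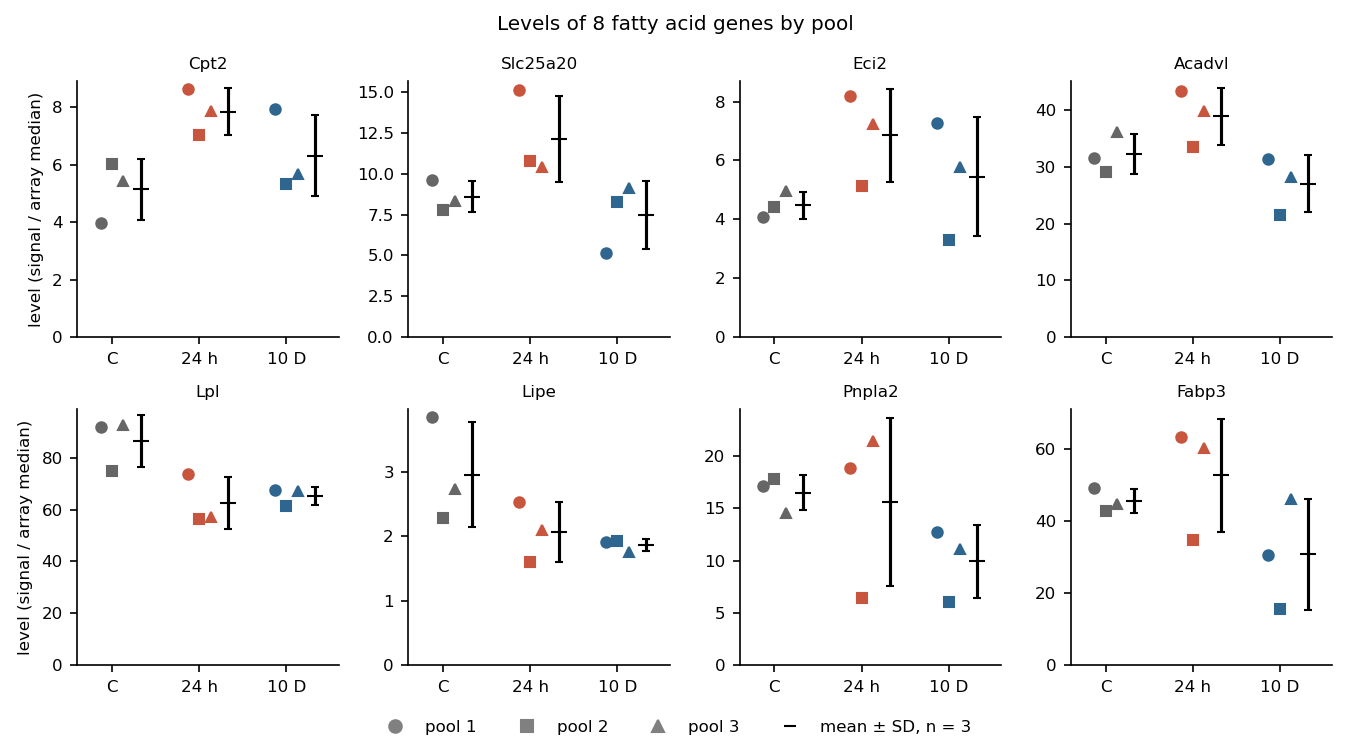
Levels (signal over array median, linear axes from 0) of 8 genes in the 9 pools, each gene read from its brightest probe set. The symbol gives the pool number and bars the mean ± SD of 3 pools. Cpt2, Slc25a20 and Eci2 were higher at 24 h than in any C pool, Lpl was lower in every treated pool, and Pnpla2 was lowest in pool 2 of both treated groups.

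The 3 measured genes of the carnitine shuttle had positive log2 changes at 24 h, of 0.11 to 0.63, and none passed the threshold. Cpt2 encodes the carnitine palmitoyltransferase of the inner membrane, which makes acyl-CoA again in the matrix. Its levels were 3.98, 6.02 and 5.43 in the C pools, 8.65, 7.03 and 7.88 in the 24 h pools, and 7.93, 5.34 and 5.66 in the 10 D pools. All 24 h pools lay above C, while 10 D overlapped both groups. The log2 change at 24 h was 0.63 ± 0.24 (SE), with an unadjusted p of 0.0253 and an adjusted p of 0.490 by limma. A dimmer Cpt2 probe set did not show this, with a log2 change of 0.06 ± 0.33 (SE) and 24 h pools on both sides of C. Slc25a20, the exchanger of carnitine and acylcarnitine in that membrane, had levels of 9.64, 7.81 and 8.36 in the C pools, 15.2, 10.8 and 10.4 in the 24 h pools, and 5.15, 8.25 and 9.11 in the 10 D pools. All 24 h pools lay above both other groups, at a log2 change of 0.48 ± 0.26 (SE) against C and an adjusted p of 0.667. In its second probe set the C pools were at 4.28, 4.65 and 4.90 and the 24 h pools at 7.58, 3.52 and 7.16, so that pool 2 lay below C, and the log2 change was 0.32 ± 0.37 (SE). Cpt1a, the outer membrane transferase best known in liver, had mean levels of 2.03 ± 0.199, 2.19 ± 0.126 and 1.90 ± 0.260 for C, 24 h and 10 D (SD, n = 3). The muscle transferase Cpt1b had no probe set of its own. The one it shares with Chkb and a predicted gene had levels of 11.9, 12.7 and 12.8 in the C pools, 14.5, 11.8 and 12.5 in the 24 h pools, and 9.90, 10.5 and 19.4 in the 10 D pools, with only the last of these standing apart.

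The 4 acyl-CoA dehydrogenases take the first oxidative step for chains of falling length. Acadvl, for very long chains, had levels of 31.6, 29.2 and 36.2 in the C pools, 43.5, 33.6 and 39.9 in the 24 h pools, and 31.5, 21.6 and 28.2 in the 10 D pools. C overlapped both groups, and the 10 D pools lay below the 24 h pools. Acadm, for medium chains, had levels of 38.6, 33.8 and 39.1 in the C pools, 57.8, 18.3 and 31.4 in the 24 h pools, and 30.1, 16.9 and 33.3 in the 10 D pools. All its 10 D pools lay below C, at a log2 change of -0.53 ± 0.39 (SE), and pool 2 was the lowest of both treated groups. For Acadl and Acads, for long and short chains, the log2 changes against C lay between -0.25 and 0.17, with none called.

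The 6 genes that serve the hydratase, second dehydrogenase and thiolase steps had log2 changes at 24 h between -0.42 and -0.01, with standard errors of 0.23 to 0.61. Without 24 h pool 2, 4 of the 6 were positive, Hadha at 0.49, Echs1 at 0.32, Hadhb at 0.14 and Acaa2 at 0.08, while Hadh was at -0.43 and Acaa1a at -0.28. Hadhb encodes the thiolase subunit of the trifunctional protein. Its levels were 38.0, 32.5 and 32.8 in the C pools, 40.0, 11.6 and 35.9 in the 24 h pools, and 40.9, 7.34 and 26.9 in the 10 D pools. Pool 2 stood far below pools 1 and 3 in both treated groups and not in C. Hadha, the subunit with hydratase and dehydrogenase activity whose promoter window overlaps that of Hadhb, had levels of 12.0, 15.3 and 7.92 in the C pools, 15.5, 5.63 and 16.2 in the 24 h pools, and 13.8, 4.0 and 11.5 in the 10 D pools. The same pools were low. Echs1, the short-chain hydratase, followed this order too, with 3.32 in 24 h pool 2 and 3.24 in 10 D pool 2 against 7.38 to 12.9 in the other 7 pools. Hadh, the short-chain hydroxyacyl-CoA dehydrogenase, did not in its brightest probe set, with mean levels of 99.5 ± 10.5, 84.0 ± 17.7 and 95.7 ± 38.8 (SD, n = 3). Its highest level, 136, was in 10 D pool 2, with an array median of 33.6, and its lowest, 59.1, in 10 D pool 1, with an array median of 88.4. In a dimmer Hadh probe set pool 2 was the lowest of each treated group, at 8.20 and 9.43. All 24 h pools lay below C there, at a log2 change of -0.82 ± 0.33 (SE) and an adjusted p of 0.507 by limma. In their brightest probe sets the thiolases Acaa2, of mitochondria, and Acaa1a, of peroxisomes, had log2 changes between -0.10 and 0.10. Other probe sets differed, with none called. A dim one for Acaa1a had every treated pool above C, at 0.45 ± 0.29 for 24 h and 0.66 ± 0.29 for 10 D (SE). For Acaa2 a dimmer one gave -0.12 ± 0.68 and -0.45 ± 0.68, and the dimmest -1.92 ± 1.92 and -1.88 ± 1.92 (SE).

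Eci2, an isomerase that moves double bonds so that unsaturated chains can be oxidised, had levels of 4.06, 4.41 and 4.97 in the C pools, 8.21, 5.13 and 7.23 in the 24 h pools, and 7.29, 3.29 and 5.76 in the 10 D pools. All 24 h pools lay above C, at a log2 change of 0.59 ± 0.31 (SE) and an adjusted p of 0.650. Its counterpart Eci1 had mean levels of 15.9 ± 4.12, 17.1 ± 1.42 and 15.4 ± 2.48, and Decr1, the dienoyl-CoA reductase, had 14.8 ± 1.59, 14.0 ± 3.16 and 15.5 ± 4.17 (SD, n = 3). For both, the 3 groups overlapped.

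Electrons from the dehydrogenases pass through the flavoprotein of Etfa and Etfb to the oxidoreductase of Etfdh. Etfb had levels of 50.2, 49.2 and 49.8 in the C pools, 52.4, 35.8 and 42.8 in the 24 h pools, and 47.8, 37.9 and 40.4 in the 10 D pools. The C pools lay close together and above all 10 D pools, at a log2 change of -0.25 ± 0.20 (SE). Etfa had levels of 23.8, 23.3 and 24.6 in the C pools, 30.1, 7.63 and 24.9 in the 24 h pools, and 26.2, 5.27 and 19.8 in the 10 D pools. Etfdh had levels of 6.73, 7.38 and 9.21 in the C pools, 14.2, 2.39 and 12.8 in the 24 h pools, and 12.3, 1.67 and 7.75 in the 10 D pools. For both genes pool 2 of each treated group was the lowest value by far, and for Etfdh pools 1 and 3 at 24 h lay above C.

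Ucp3, the uncoupling protein of muscle mitochondria, had levels of 3.06, 2.75 and 3.63 in the C pools, 2.06, 2.42 and 2.21 in the 24 h pools, and 2.90, 2.35 and 6.23 in the 10 D pools. All 24 h pools lay below C, at a log2 change of -0.49 ± 0.33 (SE) and an adjusted p of 0.743. In a dimmer Ucp3 probe set 24 h overlapped C, at -0.09 ± 0.42 (SE). Pdk4, the kinase that shuts off pyruvate dehydrogenase when fat is burned, had levels of 26.3, 17.6 and 17.5 in the C pools, 19.0, 19.5 and 13.5 in the 24 h pools, and 18.2, 8.20 and 55.7 in the 10 D pools. In 10 D pool 3 both genes had their highest level of the 9 pools. The other 10 D pools did not share this, and the group changes were 0.16 ± 0.33 for Ucp3 and 0.01 ± 0.55 for Pdk4 (SE).

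**Figure D4:**
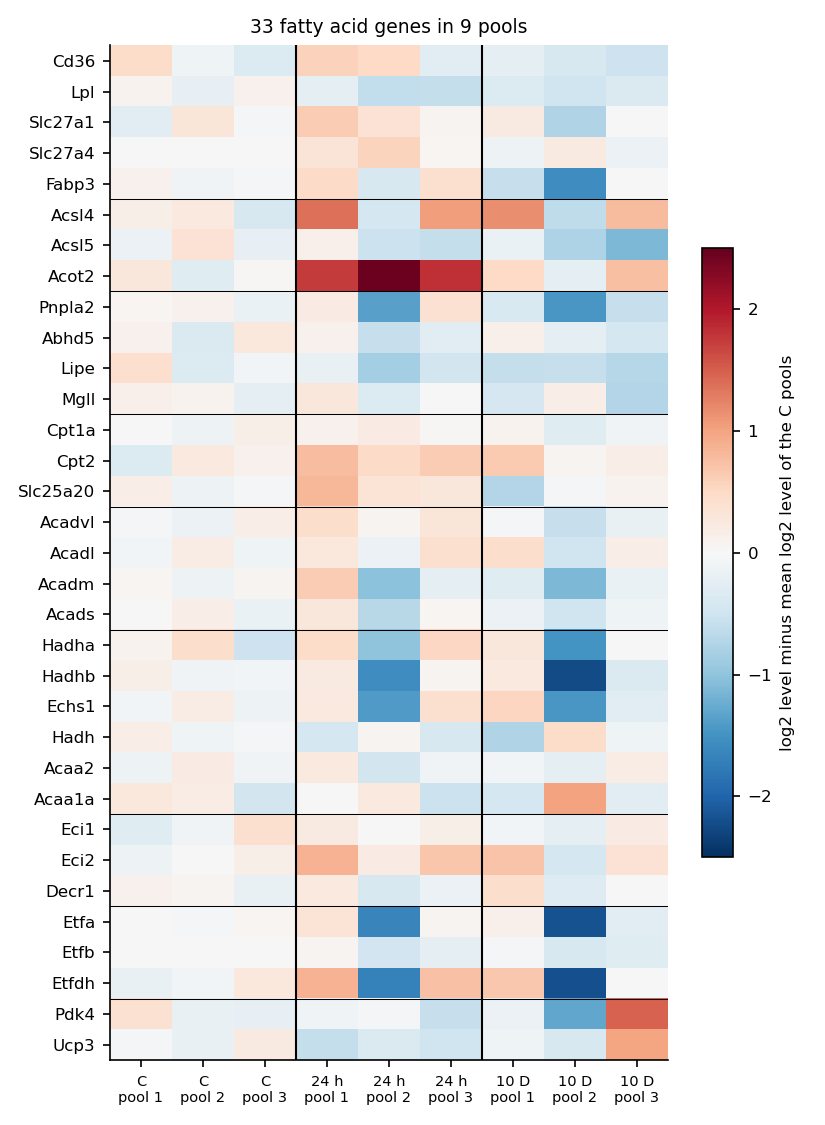
Log2 level of each of the 33 genes in each pool minus the mean log2 level of the C pools, with genes in rows grouped by role and pools in columns. Acot2 stood out in the 3 pools at 24 h. Pool 2 of 24 h and of 10 D was low for Hadha, Hadhb, Echs1, Etfa and Etfdh, and 10 D pool 3 was high for Pdk4 and Ucp3.

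The pools of a treated group differed more from each other than the C pools did. The median SD of log2 levels over the 33 genes was 0.17 in C, 0.34 at 24 h and 0.49 at 10 D. In 24 h pool 2 the median gene lay 0.39 below the C mean on the log2 scale and 7 genes were at or under a log2 difference of -1. In 10 D pool 2 the median gene lay 0.49 below and 9 genes were at or under -1, while no C pool had such a gene. The C pools are part of the mean they are set against, so such a difference is harder to reach there. Against the geometric mean of pools 1 and 3 of its group, pool 2 was at a ratio of 0.5 or less for 8 genes at 24 h and for 8 at 10 D, or 24.2% each, beside 12.9% and 15.2% of all probe sets. In C this held for none of the 33 genes and for 4.74% of all probe sets, so the wider treated pools were not particular to these genes. The 6 genes at that ratio or less in both treated groups were Etfdh, Etfa, Echs1, Hadhb, Hadha and Acsl4, or 18.2% beside 5.53% of all probe sets. In C the ratio of these 6 genes was 0.920 to 1.57. Array medians on MOE430A were 35.7 in 24 h pool 2 and 33.6 in 10 D pool 2. C pool 1 had the lowest there, 30.8, and was not low for these genes, whose brightest probe sets were all on MOE430A. On MOE430B the medians of 24 h pool 2 and 10 D pool 2, 13.2 and 14.9, were the lowest of all pools, and that of C pool 1 was 17.5. The part of array signal in the low values was not tested. Citrate cycle genes, taken as a check on mitochondria, had a median log2 change of -0.12 at 24 h and -0.26 at 10 D over the 12 tested, and none was called. These medians cover all 3 pools of a group and do not single out pool 2. The summed levels of the 12 were 565 to 630 in the C pools, 471 to 686 at 24 h and 421 to 591 at 10 D.

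Probe sets of the same gene did not give the same picture of these pools. For Hadhb the brightest probe set was at 0.307 and 0.221 of the other pools in 24 h pool 2 and 10 D pool 2, whereas another on the same chip was at 0.810 and 1.39 and one on MOE430B at 0.267 and 0.988. For Acaa2 the brightest was at 0.687 and 0.815, a dimmer one at 0.290 and 0.170, and the dimmest at 0.0114 and 0.0121. The ratios of the dimmest rest on levels of 0.0364 in 24 h pool 2 and 0.0387 in 10 D pool 2, far below the array median. For Lpl the brightest was at 0.867 and 0.909, and the second at 0.402 and 0.283. For Hadh the brightest was at 1.41 and 1.85, and another at 0.564 and 0.517. For these 4 genes, chosen after their values were seen, low values in the pools thus belonged to some probe sets and not to others. Of the 6 genes low in both pools, only Hadhb showed such a split. All 3 probe sets of Acsl4 were low, at 0.200 to 0.583 at 24 h and 0.243 to 0.371 at 10 D, and a second Etfdh probe set too dim to be tested was at 0.344 and 0.284. Etfa, Echs1 and Hadha had 1 probe set each. RNA quality is not recorded in the files, and what set these pools apart was not tested.

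**Figure D5:**
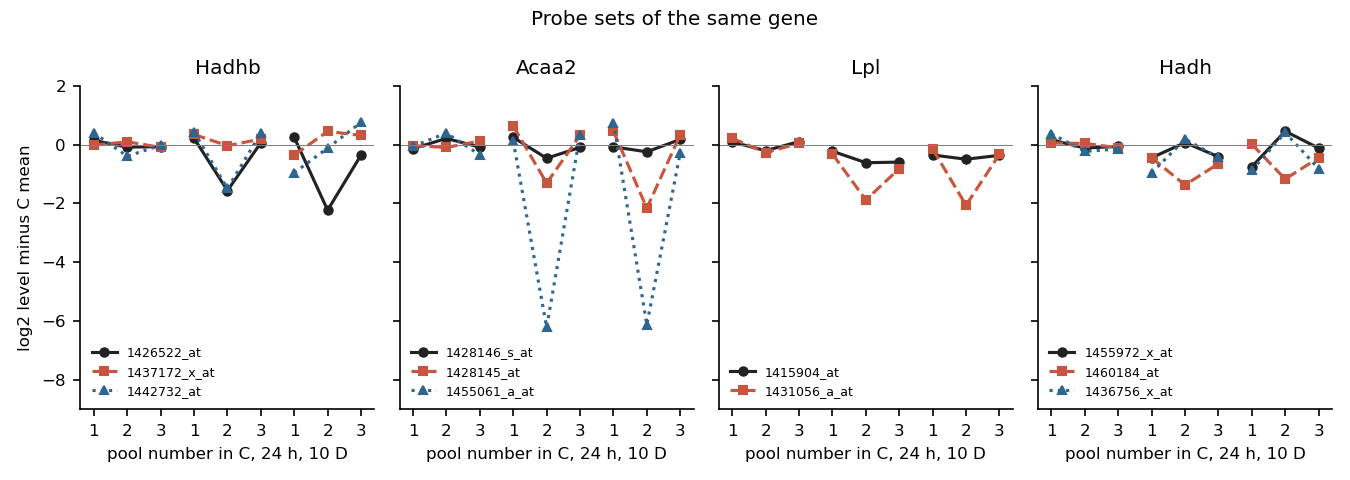
Log2 level minus the C mean in the 9 pools (pools 1 to 3 of C, 24 h and 10 D from left to right) for each tested probe set of Hadhb, Acaa2, Lpl and Hadh. Pool 2 of both treated groups dropped in at least 1 probe set of each gene while the brightest set of Acaa2 and of Lpl stayed near its neighbours.

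At 10 D against 24 h, none of the 33 genes passed the threshold by limma, beside 0.0504% of all probe sets. By an unadjusted p under 0.05, 5 genes were lower at 10 D and none higher, beside 2.95% and 2.52% of all probe sets. The 5 were Acot2, Slc25a20, Acadvl, Cd36 and Fabp3. The log2 difference of Acot2 was -1.67 ± 0.29 (SE), with an unadjusted p of 0.000119 and an adjusted p of 0.133 by limma, and all its 10 D pools lay below all 24 h pools. Its adjusted p was 0.0478 after quantile normalization and 0.0681 after trimmed mean scaling, within a range of 0.0478 to 0.626 over 19 alternatives. For the other 4 genes the log2 differences were -0.71 ± 0.26 for Slc25a20, -0.53 ± 0.21 for Acadvl, -0.65 ± 0.28 for Cd36 and -0.87 ± 0.38 for Fabp3 (SE), with adjusted p-values by limma of 0.802 to 0.904. These are from the brightest probe sets. The dim second Fabp3 probe set went the other way, at 0.72 ± 0.28 (SE), with all its 10 D pools above all 24 h pools. The second Slc25a20 probe set gave -0.30 ± 0.37 (SE). Dimmer Cd36 probe sets gave -0.34 ± 0.39 and -0.50 ± 0.20 (SE). The median over the 33 was -0.31 beside -0.01 over all probe sets. It was -0.03 without 24 h pool 1 and -0.05 without 10 D pool 2. These values share the 24 h pools with the contrast of 24 h and C.

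Other genes of lipid metabolism were taken as 5 lists, with 75 of 82 genes tested. Plin5, which coats lipid droplets and holds them to mitochondria in oxidative tissue, was the only one called against C. Its levels were 7.47, 6.46 and 7.11 in the C pools, 24.8, 55.9 and 29.4 in the 24 h pools, and 4.78, 6.02 and 12.9 in the 10 D pools. The 24 h pools lay apart from both other groups, the lowest of them 3.32 times the highest C pool. Plin5 rose 4.92-fold at 24 h, with a 95% confidence interval of 2.79 to 8.67 and an adjusted p of 0.0415 by limma, and its log2 change at 10 D was 0.04 ± 0.37 (SE). Its difference between 10 D and 24 h was -2.26 ± 0.37 (SE) on the log2 scale, with an adjusted p of 0.114. The rise at 24 h lost its call without any 1 pool of C and without 24 h pool 2 or 24 h pool 3, at adjusted p-values of 0.127 to 0.201, within a range of 0.0141 to 0.219 over 19 alternatives.

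The lipid droplet and triglyceride synthesis list held 13 genes, all tested, with 1 called and a median log2 change of 0.06 at 24 h and 0.03 at 10 D. Gpam, which starts glycerolipid synthesis, had levels of 35.2, 33.7 and 45.5 in the C pools, 23.7, 23.4 and 22.2 in the 24 h pools, and 31.6, 42.0 and 43.4 in the 10 D pools. All its 24 h pools lay below the other groups, at a log2 change of -0.71 ± 0.21 (SE) and an adjusted p of 0.302. Dgat2, which adds the last fatty acid of triglyceride, had log2 differences from C of -0.74 ± 0.27 for 24 h and -0.78 ± 0.27 for 10 D (SE), with adjusted p-values of 0.464 and 1.

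Among the other uptake, transport and thioesterase genes, 14 of 15 were tested and none called. Fabp5, a fatty acid binding protein, had levels of 7.99, 8.90 and 6.27 in the C pools, 19.5, 35.8 and 18.4 in the 24 h pools, and 7.44, 23.0 and 8.62 in the 10 D pools. All its 24 h pools lay above C, at a log2 change of 1.62 ± 0.42 (SE) and an adjusted p of 0.228. Acot9, a mitochondrial acyl-CoA thioesterase, had levels of 4.31, 4.51 and 4.94 in the C pools, 12.0, 7.61 and 13.0 in the 24 h pools, and 12.0, 4.99 and 7.70 in the 10 D pools. Every treated pool lay above C, with log2 differences of 1.21 ± 0.32 for 24 h and 0.75 ± 0.32 for 10 D (SE) and adjusted p-values of 0.25 and 1. Acot13, another mitochondrial thioesterase, had a log2 change of 0.59 at 24 h with an adjusted p of 0.604. The median of the list was 0.03 at 24 h and -0.07 at 10 D.

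The other oxidation genes, peroxisomal and mitochondrial, had 19 of 22 tested and none called, with medians of -0.19 and -0.08. Oxct1, which lets muscle use ketone bodies, had the smallest F test p of the list and a log2 change of -0.45 ± 0.19 (SE) at 24 h, with an adjusted p of 0.551. The regulators of fatty acid oxidation had 21 of 22 tested and none called, with medians of -0.02 at both times. Rxra, the retinoid X receptor that pairs with the proliferator-activated receptors, had levels of 6.67, 6.02 and 5.02 in the C pools, 3.47, 2.15 and 4.05 in the 24 h pools, and 4.63, 2.68 and 5.21 in the 10 D pools. All its 24 h pools lay below C, at a log2 change of -0.91 ± 0.32 (SE) and an adjusted p of 0.420. Klf15, a transcription factor of muscle fuel use, had a log2 change of -0.87 ± 0.46 (SE) at 24 h with an adjusted p of 0.652, and Ppard, the receptor form prominent in muscle, had 0.54 ± 0.36 (SE) with 0.738. The pyruvate dehydrogenase kinases and complex had 8 of 10 tested and none called, with medians of -0.03 and -0.16.

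Markers of other cells and fibres were measured beside these genes. Median log2 changes at 24 h and 10 D were 0.14 and -0.09 for 9 endothelial markers, -0.37 and -0.14 for 6 fibroblast markers, -0.24 and -0.24 for 10 skeletal muscle fibre markers, -0.19 and -0.21 for 8 slow or oxidative fibre markers, and 0.31 and 0.35 for 6 brown adipocyte markers, with none called. The brown adipocyte markers ranged from -0.50 to 2.68 at 24 h and from -0.03 to 2.07 at 10 D. Of 7 immune markers tested 1 was called at 24 h, S100a8, a neutrophil protein, at a log2 change of 4.34 ± 0.68 (SE) and an adjusted p of 0.0439 by limma, and the median of the list was 0.09 and 0.07. At 10 D the largest log2 change of the immune list was 3.12 and its smallest adjusted p 0.736 by limma. There 1 marker had all its 10 D pools above all C pools. Of 3 blood markers 2 were tested and none called, with medians of 0.25 and 0.03. The part of these cells in the changes of the 33 genes was not tested.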

How the data were processed

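The authors pooled RNA from 3 mice, hybridised each of 9 pools to both MOE430A and MOE430B arrays, and quantified them with MAS 5.0. The deposited values were linear signal intensities without scaling between arrays, so a division by the array median decides how pools compare. Here signals were divided by the array median, a signal of 0 (18 values) was set to 0.05, and log2 was taken. Probe sets at or above the 25th percentile of mean log2 signal of their chip (16969 and 16783) were fitted with limma 3.58.1 in R 4.3.3, with the 3 groups and an intensity trend. The fit was run on simulated data with independent noise of the same spread in each group. That run does not check the fit under the unequal spread of these pools. Detection calls were not used. A gene was read from its brightest probe set with 1 symbol in the platform annotation, updated with GRCm38.p6 names. Pool by pool values were given for 16 genes by rule: those called, the 8 smallest p-values in each contrast with C, and the smallest F test p of each role, with Acsl4, Hadha, Echs1, Etfa, Etfdh and Pdk4 added after their values were seen. Intensities have no counts behind them, and 3 pools a group limit the precision. The members and lists were chosen with earlier results of these data known.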

Additional observations from a re-analysis of the deposited data

How the results depend on the processing

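The 33 genes were fitted again under 21 alternatives: no filter and one at the 50th percentile, quantile normalization, trimmed mean scaling, signals under 10 set to 10, eBayes without a trend, plain analysis of variance (the methods' test), only the 2 groups of a contrast, a replicate block, each of 9 pools left out, both treated pools numbered 2 left out (chosen after seeing the data), and another choice or the mean of a gene's probe sets. The count of genes called was 1 in the F test and fell to 0 with eBayes without a trend and with plain analysis of variance, and was 0 to 1 with 1 pool left out. At 24 h against C it was 1, again 0 under both of those tests, 0 to 1 with 1 pool left out, and 2 without both treated pools numbered 2. At 10 D against C it was 0 under every alternative. At 10 D against 24 h it was 0, 1 with quantile normalization, 1 with trimmed mean scaling, and 0 to 0 with 1 pool left out. The median log2 change ranged from -0.25 to 0.19 at 24 h, from -0.31 to -0.07 at 10 D and from -0.46 to -0.03 at 10 D against 24 h with 1 pool left out, and the first was 0.19 without both treated pools numbered 2. The cause of these shifts was not tested, beyond fewer pools. With the replicate block the counts were 1, 1, 0 and 0, the same as without it. Pools of the same number had no pairing in the labels, and 4 of 18 same-numbered pairs of pools had deviations from the group means correlated above 0.1, from -0.07 to 0.56, the highest between 24 h and 10 D on MOE430A, where 5 of 6 pools correlated best with their own number. Over all probe sets the block called 209 at 24 h against C in place of 154. At an unadjusted p under 0.05, genes lower at 10 D against C went from 1 to 4 with the block, and to 3 with 3 higher without both treated pools numbered 2. Calls over all probe sets moved more: in the F test from 73 to 24 without a trend, 31 by plain analysis of variance, 347 without both treated pools numbered 2 and 7 to 243 with 1 pool left out. At 24 h against C, 154 became 52, 100, 599 and 24 to 432 in that order, and 345 with only the 2 groups. At 10 D against C, 0 became 3 with the block, 3 with signals under 10 set to 10 and 5 without both pools. At 10 D against 24 h, 17 became 5 without a trend, 1 with only the 2 groups, 40 with quantile normalization, 35 with trimmed mean scaling, 110 without both pools and 1 to 76 with 1 pool left out. The mean of both Acot2 probe sets gave a log2 change of 1.01 at 24 h in place of 2.01. Of 102 single changes (33 genes and Plin5 in 3 contrasts), 52 changed sign under at least 1 alternative, all of them uncalled in both fits and at most 0.51 in size on the log2 scale. The precision is set by 3 pools a group: the median half-width of the 95% interval at 24 h was 0.63 on the log2 scale.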
